A study of Mus musculus with 2 samples.

Results

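Glutathione, the tripeptide of glutamate, cysteine and glycine that serves as the main thiol antioxidant of cells, was followed here through 10 genes of its synthesis, recycling and extracellular breakdown in the mouse kidney. The genes were found by symbol among the 43346 genes of the deposited tables, and 10 of 10 were present. They comprise the 3 synthesis genes Gclc, Gclm and Gss, the reductase gene Gsr, the gamma glutamyltransferase genes Ggt1, Ggt5, Ggt6 and Ggt7, and the peptidase genes Dpep1 and Anpep. All samples belong to 1 group, adult kidney of the inbred strain C57BL/6J at 8 weeks of age, with no allele or agent named in the labels and a health state labelled as unknown. The group holds 2 libraries, replicate 1 and replicate 2, numbered as biological replicates in the labels and made from polyadenylated RNA depleted of ribosomal RNA. With a single group the data give levels, ratios between genes, and differences between the libraries, and no treatment or genotype was compared.

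In the synthesis pathway, glutamate-cysteine ligase joins glutamate to cysteine in the rate-limiting step, and glutathione synthetase then adds glycine. The ligase is a pair of subunits, the catalytic GCLC and the modifier GCLM, which lowers its feedback inhibition by glutathione. Glutathione that leaves cells or is filtered is broken down outside the cell, first by gamma glutamyltransferase and then by dipeptidases, and the freed amino acids are taken up again. This gamma glutamyl cycle is known to be most active at the brush border of the kidney proximal tubule.

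The libraries held 67252609 expected counts in replicate 1 and 87330097 in replicate 2. They also differed in the marker sums given below, whose part in the results was not tested. Both samples carry 1 donor label and are labelled as pooled from littermates of both sexes, but the Y-linked genes Ddx3y, Eif2s3y and Uty were at 0 in both, Kdm5d had 0 counts in replicate 1 and 3 in replicate 2, and Xist was at 26.8 TPM in replicate 1 and 31.4 TPM in replicate 2, which goes against that label. All values below therefore rest on libraries whose labelled mix of sexes the Y-linked genes do not show, and no library without this feature was at hand for comparison. The SDs measure only the spread between these 2 libraries. TPM, a transcript level scaled to length and to the library total, can be compared between genes. The 5 skeletal muscle markers summed to 2.25 TPM in replicate 1 and 714 TPM in replicate 2, the 5 adrenal cortex markers to 51.9 and 0.730 TPM, and the 5 lymphocyte markers to 2.69 and 27.7 TPM in the same order of libraries, and all 5 genes of each list were called different between libraries. The 8 proximal tubule markers, all detected, summed to 8949 TPM in replicate 1 and 6735 TPM in replicate 2. Slc34a1 alone gave 5821 and 4317 TPM of these sums. The thick ascending limb markers summed to 3431 and 2083 TPM and the distal convoluted tubule markers to 513 and 248 TPM. Umod alone gave 3204 and 1908 TPM of the former, and Slc12a3 alone 512 and 247 TPM of the latter. In the same order of libraries, Slc12a1 had 167 and 120 TPM and Kcnj1 48.3 and 44.5 TPM. Cldn16 had 11.0 and 10.2 TPM and Trpm6 1.45 and 1.24 TPM. The brown fat markers were lower in replicate 1, at 234 and 297 TPM. Genes of the mitochondrial genome took 11.2% and 17.9% of TPM. In bulk tissue, fewer cells of a type and less RNA per cell cannot be told apart.

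Mouse Ggt1 is known to be transcribed from several alternative promoters, and its deposited transcripts began in 9 groups of start positions. RefSeq's promoter table for GRCm38.p6 has 4 windows of 300 bases for Ggt1, from 250 bases before an annotated start to its first 50 bases. Each lies at a start group, whose share is the sum of the deposited shares of its annotated transcripts. Starts themselves were not measured. The windows are shown because the start groups differ so much in share, in order along the plus strand. Capitals mark matches, on either strand, to the TATA box, the CCAAT box, the GC box or the core of the antioxidant response element, through which the factor NRF2 acts on many glutathione genes. The letters searched are given after the sequences. Matches on opposite strands overlap in the first window, and a match is a description of letters and not a site shown to be used.
Ggt1 chr10:75563882-75564181: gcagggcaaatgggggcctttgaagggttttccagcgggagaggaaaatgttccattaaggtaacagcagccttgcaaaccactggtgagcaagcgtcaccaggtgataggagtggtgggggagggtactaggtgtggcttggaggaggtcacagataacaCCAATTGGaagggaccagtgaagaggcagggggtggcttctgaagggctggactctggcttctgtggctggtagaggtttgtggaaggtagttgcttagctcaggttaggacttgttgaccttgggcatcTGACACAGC
Ggt1 chr10:75568412-75568711: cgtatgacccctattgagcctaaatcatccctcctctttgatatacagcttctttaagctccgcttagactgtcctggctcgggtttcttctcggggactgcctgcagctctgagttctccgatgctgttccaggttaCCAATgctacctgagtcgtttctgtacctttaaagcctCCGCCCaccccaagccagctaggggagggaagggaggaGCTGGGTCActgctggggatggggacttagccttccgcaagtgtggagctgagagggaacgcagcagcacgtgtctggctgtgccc
Ggt1 chr10:75571310-75571609: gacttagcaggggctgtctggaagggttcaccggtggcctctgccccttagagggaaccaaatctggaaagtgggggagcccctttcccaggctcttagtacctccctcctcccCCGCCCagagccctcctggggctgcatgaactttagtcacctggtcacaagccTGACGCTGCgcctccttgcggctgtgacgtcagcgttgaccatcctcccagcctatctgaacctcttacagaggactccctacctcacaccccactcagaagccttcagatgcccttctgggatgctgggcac
Ggt1 chr10:75573245-75573544: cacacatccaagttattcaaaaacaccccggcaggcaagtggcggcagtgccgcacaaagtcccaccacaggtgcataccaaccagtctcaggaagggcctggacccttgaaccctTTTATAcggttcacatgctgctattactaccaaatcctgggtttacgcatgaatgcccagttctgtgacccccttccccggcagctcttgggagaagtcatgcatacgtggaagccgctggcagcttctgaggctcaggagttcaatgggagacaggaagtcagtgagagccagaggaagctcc

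The second of these windows lies at the start group that held most of the Ggt1 signal. This group has 6 transcripts starting between positions 75568634 and 75568674, 7.03 kb after the first annotated start, and it held 85.2% of Ggt1 TPM in replicate 1 and 83.7% in replicate 2. In expected counts, which are not divided by length, the same group held 91.9% and 91.3%. The window holds a CCAAT match whose first base lies 112 bases before the start, a GC box match 74 bases before it and an antioxidant response element core 36 bases before it, the last 2 on the minus strand. The start group of the fourth window, at 11.8 kb, held 3.69% of Ggt1 TPM in replicate 1 and 3.82% in replicate 2, and its window holds a TATA box match 134 bases before the start on the minus strand. The group of the first window held 0.780% of TPM in replicate 1 and 0.680% in replicate 2, and that of the third window 3.96% and 3.99%. The order of the 4 start groups by share of TPM was the same in both libraries. In expected counts the fourth window's group held 4.33% in replicate 1 and 4.47% in replicate 2. The third window's group held 1.26% and 1.20%, so the order of these 2 groups was reversed on that scale.

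Across the 4 Ggt1 windows, 3 held the antioxidant response element core, searched as TGACNNNGC, which is present in 12.4% of all 32817 windows of the table. The GC box, searched as GGGCGG, was in 2 of the 4 windows and in 35.6% of all windows. The box named by its letters, CCAAT, was also in 2, and in 37.4% of all windows. The TATA box, a core promoter element of some genes, was searched as TATAAA and was in 1 of the 4 windows and in 13.6% of all windows. The letters GTTAAT, a half-site of the kidney and liver factor HNF1, were in none of the 4 and in 7.10% of all windows, which says only that these letters are absent from these windows. Of the 10 genes, 7 had a window in the table, 10 windows in all. The antioxidant response element core also occurred in the Gclm window, 134 bases before its annotated start on the minus strand, and in no window of the other 5 genes.

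**Figure D1:**
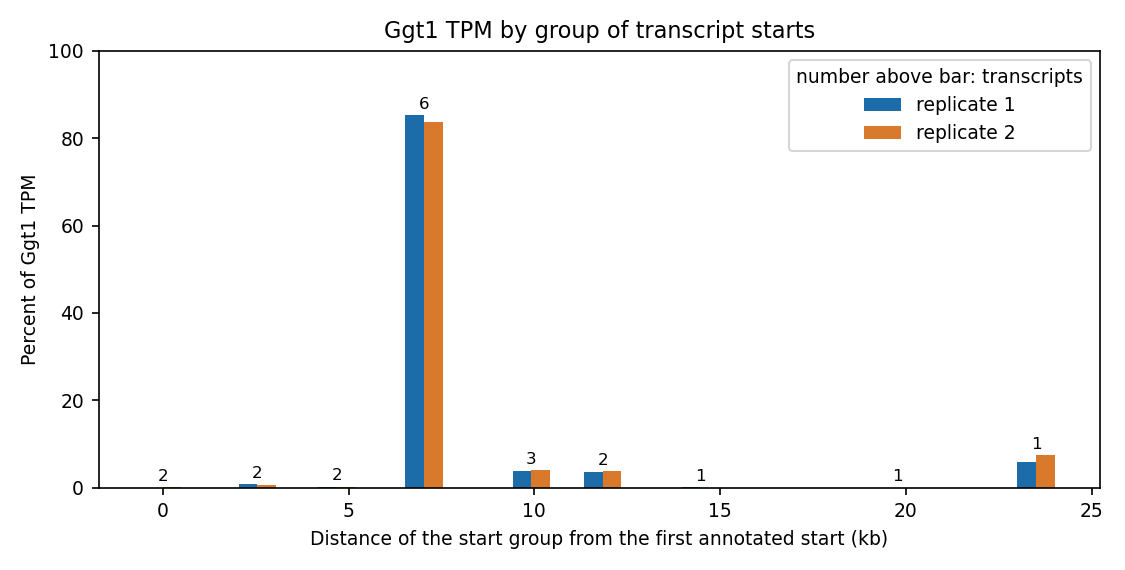
Percent of Ggt1 TPM (vertical axis) held by each group of transcript starts, placed by distance in kb from the first annotated start (horizontal axis), for replicate 1 and replicate 2, with the number of transcripts above the bars. The group at 7.03 kb held 85.2% in replicate 1 and 83.7% in replicate 2, and no other group passed 7.47% in either library.

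Ggt1 encodes the transferase that opens the gamma glutamyl bond of extracellular glutathione, and it was the highest of the 10 genes. It lies on chromosome 10 of GRCm38 from 75561604 to 75586200 on the plus strand. It had 776.5 TPM in replicate 1 and 582.9 TPM in replicate 2, a mean of 679.7 ± 136.9 TPM (SD, n = 2). Among the 12273 protein-coding genes at 1 TPM or more in both libraries it ranked 147th, at percentile 98.8. Behind this level were 69741 expected counts (replicate 1) and 72914 (replicate 2), and the deposited TPM intervals ran from 765 to 779 TPM and from 576 to 586 TPM. The libraries differed by more than the width of these intervals.

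Most Ggt1 signal came from a single transcript. Ggt1-208, a coding transcript of 2140 nt that starts in the dominant group, held 77.5% of Ggt1 TPM in replicate 1 and 77.4% in replicate 2, a difference of 0.07 points. Ggt1-201, the other transcript whose coding sequence is in the consensus coding sequence set (CCDS), held 3.69% and 3.82%. The retained-intron transcript Ggt1-220, which lies at the 3′ end of the gene, held 5.93% and 7.47%. Ggt1-203 held 4.94% and 3.84%, and Ggt1-207, Ggt1-216, Ggt1-202 and Ggt1-212 each held at most 2.41% in either library. The CCDS transcripts together held 81.2% of Ggt1 TPM in each library.

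The 3 other transferase genes were low beside Ggt1. Ggt5, whose product also converts the leukotriene LTC4, lies 3139 bases downstream of Ggt1 on the same strand (chromosome 10, 75589340 to 75617200) with no annotated gene between them. It had 28.6 TPM in replicate 1 and 33.7 TPM in replicate 2, and was the only one of the 10 genes that was lower in TPM in replicate 1, although over CCDS transcripts, as given below, it was higher there. Ggt6, a family member whose enzymatic role is less well known (chromosome 11, 72435526 to 72438400), had 22.6 and 16.1 TPM in the same order. Ggt7, likewise little characterised (chromosome 2, 155490379 to 155518237, minus strand), had 3.67 and 1.61 TPM and sat at percentile 11.4 of detected coding genes.

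Ggt1 held 93.4% of the TPM of the 4 transferase genes in replicate 1 and 91.9% in replicate 2. Ggt5 held 3.43% and 5.31%, Ggt6 2.72% and 2.53%, and Ggt7 0.441% and 0.254%. The order of Ggt5 and Ggt6 depended on which transcripts were summed. Over CCDS transcripts alone, a measure added after seeing the data, Ggt5 had 3.86 TPM in replicate 1 and 2.89 TPM in replicate 2, against 20.9 and 14.4 TPM for Ggt6. The gene-level value of Ggt5 came mostly from Ggt5-203, a transcript of 648 nt annotated as coding but outside CCDS, which held 78.6% and 81.8% of its TPM. The CCDS transcript Ggt5-201, of 4410 nt, held 13.5% and 8.56% of TPM but 59.3% and 46.0% of expected counts. On CCDS transcripts Ggt1 exceeded Ggt5 by 163-fold in replicate 1 and 164-fold in replicate 2, while on all transcripts the ratios were 27.2 and 17.3.

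The peptidase genes that act after the transferase were the next step of the cycle. Dpep1 encodes the membrane dipeptidase that splits cysteinylglycine (chromosome 8, 123186242 to 123201812), and it had 183 TPM in replicate 1 and 148 TPM in replicate 2, or 165.7 ± 24.7 TPM. Its family members Dpep2, at 0.530 and 0.510 TPM, and Dpep3, at 0.0800 and 0.0400 TPM, did not reach 1 TPM. Anpep, aminopeptidase N of the brush border (chromosome 7, 79821803 to 79861059, minus strand), had 87.8 TPM in replicate 1 and 72.4 TPM in replicate 2, or 80.1 ± 10.9 TPM. Ggt1 exceeded Dpep1 by 4.24-fold in replicate 1 and 3.93-fold in replicate 2, and Dpep1 exceeded Anpep by 2.09-fold and 2.05-fold.

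Dpep1 has a single transcript in the tables, so its level does not depend on how reads were shared among isoforms. For Anpep, Anpep-201 held 93.4% of TPM in replicate 1 and 93.2% in replicate 2, and Anpep-202 the rest. The posterior mean TPM of Anpep in replicate 2 was 85.1, above its TPM of 72.4, with a deposited interval from 71.1 to 111 TPM. In that posterior mean, Anpep-203, a processed transcript of 178 nt with 0 expected counts, took 15.3% of the gene in replicate 2 and 0% in replicate 1.

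Among the synthesis genes, Gclm and Gss stood above Gclc at the gene level. Gclc (chromosome 9, 77754535 to 77794485), with a single transcript, had 76.8 TPM in replicate 1 and 58.7 TPM in replicate 2, or 67.8 ± 12.8 TPM. Gclm (chromosome 3, 122245557 to 122270732) had 239 TPM in replicate 1 and 138 TPM in replicate 2, or 188 ± 71.3 TPM. Gss (chromosome 2, 155563181 to 155592810, minus strand) had 237 TPM in replicate 1 and 163 TPM in replicate 2, or 200.3 ± 52.1 TPM. Gclc sat at percentile 85.7 of detected coding genes, Gclm at 94.8 and Gss at 95.2.

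The ratio of the ligase subunits depended on which Gclm transcripts were summed. Over all transcripts, Gclc over Gclm in TPM was 0.322 in replicate 1 and 0.426 in replicate 2. Over CCDS transcripts it was 1.02 in replicate 1 and 0.841 in replicate 2, with Gclc the higher in replicate 1 and Gclm in replicate 2. Gclm-202, a processed transcript of 762 nt, held 66.4% of Gclm TPM in replicate 1 and 40.8% in replicate 2. The CCDS transcripts Gclm-206, of 1002 nt, and Gclm-201, of 4841 nt, held 21.5% and 10.1% in replicate 1, and 38.1% and 12.5% in replicate 2.

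Gclm-202 carried most of the difference in Gclm between libraries. It had 4736 expected counts in replicate 1 and 2373 in replicate 2, with a deposited SD of the count of 41.9 and 41.2. Gclm-201 had 5966 expected counts in replicate 1 and 5965 in replicate 2, before any scaling to library totals. In TPM, Gclm-201 had 24.0 in replicate 1 and 17.3 in replicate 2, and Gclm-206 had 51.2 and 52.6. The CCDS transcripts of Gclm summed to 75.2 TPM in replicate 1 and 69.9 TPM in replicate 2, a ratio of 1.08, while the whole gene differed by a TPM ratio of 1.73. In expected counts, Gclm-201 was the leading transcript, at 45.9% and 50.6%, and Gclm-202 held 36.4% and 20.1%. Gclm shares 244 exon bases with the pseudogene Gm6061 on its own strand and 296 with Gm17494, a processed-transcript gene on the other strand. No window of 76 bases, the read length, of Gclm-201 or Gclm-206 also occurs in transcripts of other genes. Gclm-202, outside CCDS, was not searched. The deposited SD of the Gclm gene count was 27.7 in replicate 1 and 25.8 in replicate 2. The libraries are labelled as stranded, but whether strand was used in counting is not given in the sources used here.

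Gss and Gsr shared the same feature to a smaller degree. Gss-201, a CCDS transcript of 1963 nt, held 49.4% of Gss TPM in replicate 1 and 66.2% in replicate 2. The processed transcript Gss-209, of 834 nt, held 35.5% and 22.0%, and Gss-202 held 10.1% and 7.16%. On CCDS transcripts Gss had 123 TPM in replicate 1 and 112 TPM in replicate 2, a ratio of 1.10 against 1.45 over all transcripts. Gss shares 395 exon bases with Acss2 on the other strand, and 3.07% of the 76-base windows of Gss-201, the read length, also occur in transcripts of Acss2 or the antisense gene Gssos2.

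Gsr encodes glutathione reductase, which returns oxidised glutathione to its reduced form with NADPH. Its level was 60.8 TPM in replicate 1 and 55.7 TPM in replicate 2, or 58.3 ± 3.56 TPM, the smallest SD relative to its mean among the 10 genes. Its CCDS transcript Gsr-201 held 71.7% of TPM in replicate 1 and 79.1% in replicate 2, and the processed transcript Gsr-202 held the other 28.4% and 20.9%. On Gsr-201 alone the libraries gave 43.5 and 44.1 TPM, a ratio of 0.988.

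**Figure D2:**
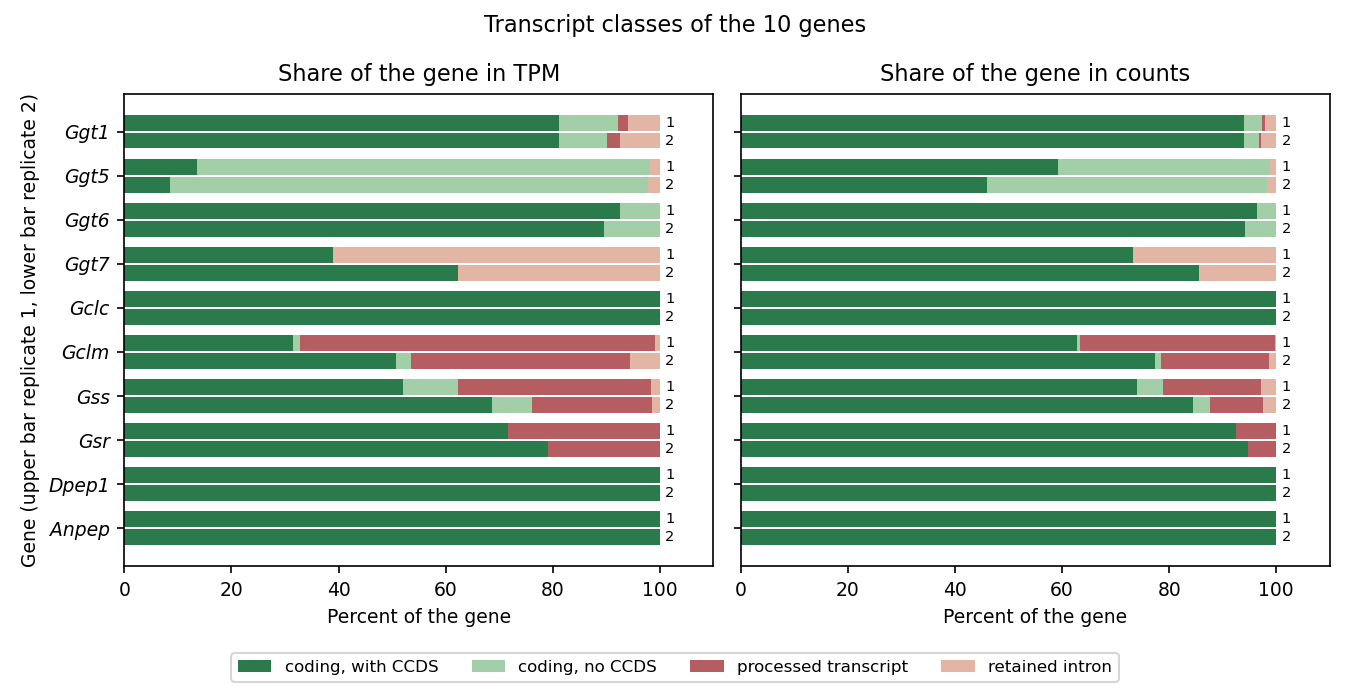
Share of each gene held by 4 classes of transcript, in percent of TPM (left) and of expected counts (right), with replicate 1 as the upper and replicate 2 as the lower bar of each gene. Processed transcripts took a larger part of Gclm, Gss and Gsr in replicate 1 than in replicate 2 on both scales, while Gclc, Dpep1 and Anpep lay wholly in CCDS transcripts.

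Ordered by mean TPM, the genes ran Ggt1, Gss, Gclm, Dpep1, Anpep, Gclc, Gsr, Ggt5, Ggt6 and Ggt7. The gaps from Gss to Gclm and from Gclm to Dpep1 were each smaller than the sum of the 2 SDs. These SDs include any shift between libraries that the genes share. Gclm changed place between libraries, whereas Gss was above Dpep1 in both. Anpep and Gclc lay within their spread, as did Gclc and Gsr, whereas Anpep and Gsr differed by 21.8 TPM, above their summed SD of 14.5 TPM. Both libraries gave these 3 in the same order. The gaps after Ggt1, Dpep1, Gsr, Ggt5 and Ggt6 exceeded the summed SDs. On CCDS transcripts Dpep1, at 165.7 ± 24.7 TPM, came second, ahead of Gss at 117.7 ± 7.96 TPM, and Gclm at 72.5 ± 3.78 TPM lay within its spread of both Anpep and Gclc. The median of the 10 genes was 82.3 TPM in replicate 1 and 65.5 TPM in replicate 2, against 14.1 and 12.5 TPM over all detected coding genes.

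**Figure D3:**
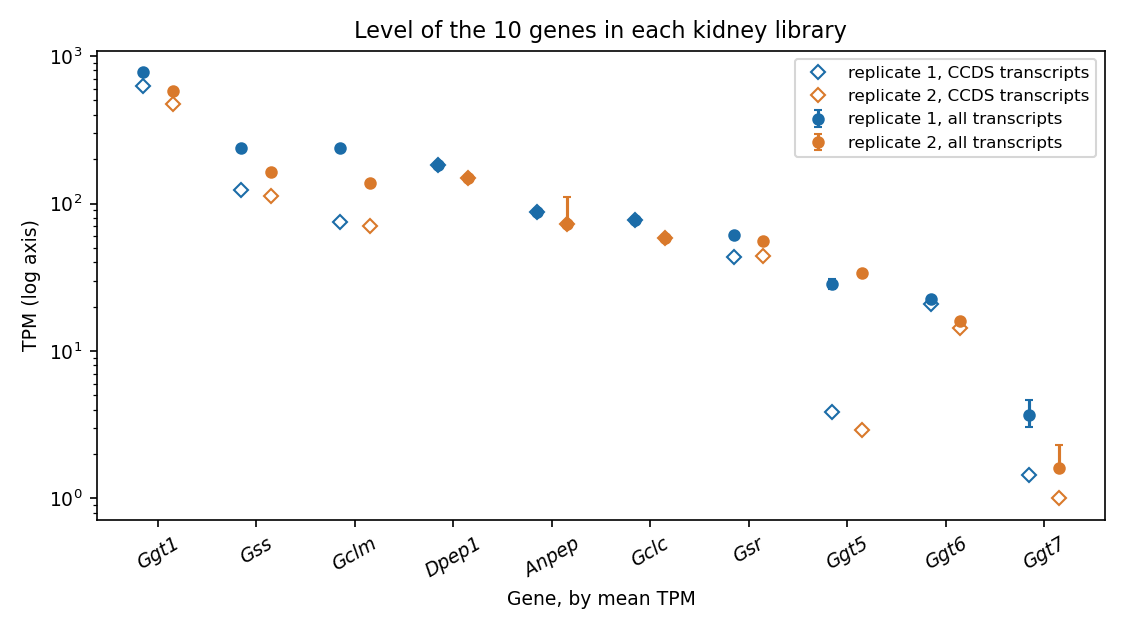
TPM (log axis) of the 10 genes, ordered by mean, in replicate 1 and replicate 2, over all transcripts (filled, bars are the deposited interval) and over CCDS transcripts (open diamonds). Ggt1 lies highest in both libraries, and Ggt5 drops from 28.6 and 33.7 TPM over all transcripts to 3.86 and 2.89 TPM over CCDS transcripts in replicates 1 and 2.

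The share of TPM outside CCDS transcripts was also measured over all genes. Its median over the 10 genes was 23.6% in replicate 1 and 19.8% in replicate 2, against 5.91% and 5.26% over 11974 detected genes with a CCDS transcript. More than 50% of TPM lay outside CCDS transcripts for 3 of the 10 genes in replicate 1 (Ggt5, Ggt7 and Gclm) and for 1 of 10, Ggt5, in replicate 2, beside 19.9% and 17.8% of all genes.

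None of the 10 genes was called different between the libraries. A call took a ratio of scaled counts of 2-fold or more and an adjusted p below 0.05. The p came from a two-sided exact binomial test with Benjamini-Hochberg adjustment. Of the 18723 genes tested, which were not limited to coding genes at 1 TPM or more, 8.21% were called. Among those with 100 or more counts in sum, as all 10 genes had, 4.18% were, again not limited to coding genes at 1 TPM or more. All 10 genes are in that narrower set, so neither share is a like background for them. At 1.5-fold, 0 of 10 genes and 14.5% of all genes were called. Scaled to spike-in totals, which moved the median log2 ratio of all detected coding genes to 0.60, Gclm and Ggt7 were called, both higher in replicate 1. Under that scaling 15.3% of all genes were called, and 81.2% of these calls were higher in replicate 1. The test compares the reads of these 2 libraries, not conditions. At these depths small ratios pass on p alone, as did 10 of the 10 genes and 69.0% of the 12273 detected coding genes. With library totals alone as the scaling, 9 of the 10 passed, and Ggt5 had an adjusted p of 0.493 in the same exact test.

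Ratios of scaled counts, replicate 1 over replicate 2, ran from 0.898 for Gsr to 1.47 for Ggt7, and 8 of the 10 were above 1. Ggt7 rested on 252 and 211 counts, and its ratio had a 95% exact interval from 1.22 to 1.78. Gclm followed at 1.36 (1.33 to 1.39), and Ggt6 at 1.26 (1.18 to 1.34). Ggt1 was at 1.18 (1.17 to 1.19), Gclc at 1.16, Gss at 1.11, Dpep1 at 1.10 and Anpep at 1.08. Ggt5, at 0.921 (0.860 to 0.986), and Gsr were the 2 below 1, and scaling by spike-ins turned both above 1. The median absolute log2 ratio was 0.19 for the 10 genes and 0.19 for all detected coding genes. Of the 10, 5 lay between the quartiles of all detected coding genes, -0.21 and 0.17 on the log2 scale. The proximal tubule markers had a median log2 ratio of 0.16, with only Slc22a8 (-0.098) and Slc5a12 (-0.18) below 0. This was not particular to that segment. Medians were 0.18 for collecting duct, 0.13 for thick ascending limb, 0.47 for distal convoluted tubule and 0.26 for stroma and smooth muscle markers. For podocyte, endothelium and macrophage markers they were 0.032, -0.11 and -0.24. The skeletal muscle, adrenal and lymphocyte markers moved as given above. The part of these markers in the ratios of the 10 genes was not tested. The intervals cover counting error only.

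**Figure D4:**
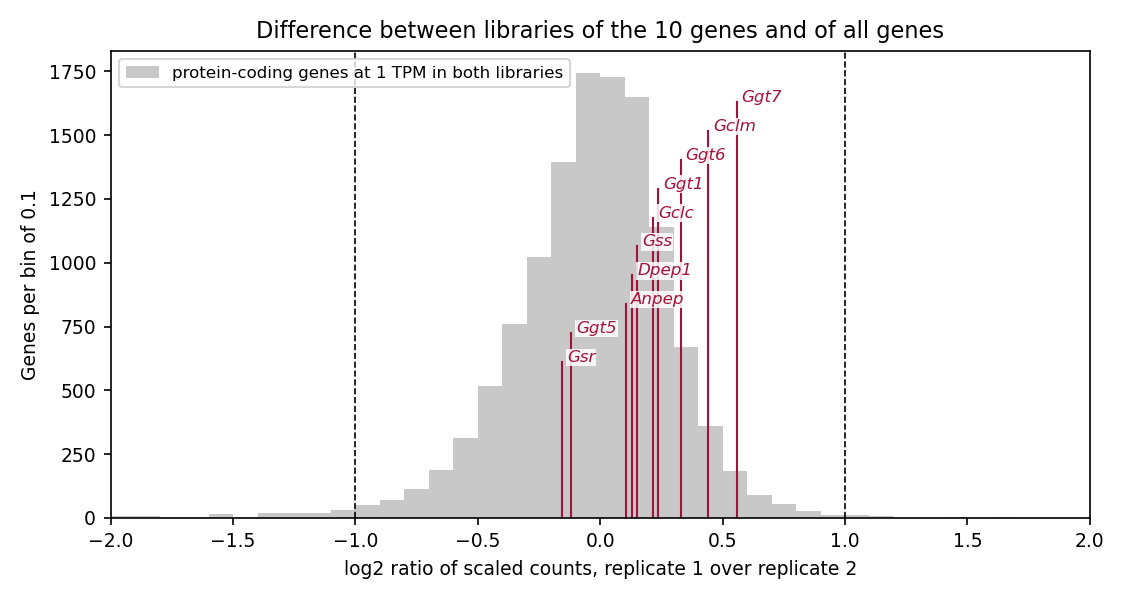
log2 ratio of scaled counts, replicate 1 over replicate 2 (horizontal axis, drawn from -2 to 2), with the number of detected protein-coding genes per bin of 0.1 in grey and the 10 genes as red lines of staggered height. The 10 genes lie between -0.16 for Gsr and 0.56 for Ggt7, inside the dashed lines of a 2-fold difference.

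For isoform shares of TPM, the transcript that led in replicate 1 also led in replicate 2 for 8 of the 8 genes with more than 1 transcript. This held for 88.3% of 9388 genes tested. The transcript with the highest mean share differed by 20 points or more for Gclm and Ggt7, 2 of 8 genes, where 7.86% of all genes did so. Gclm-202 was 25.6 points higher in replicate 1. Ggt7-201 was at 38.9% in replicate 1 and 62.4% in replicate 2, and the retained-intron transcript Ggt7-202 was at 24.4% and 0%, on 19.1 and 0 expected counts. Ggt7-204, another retained-intron transcript, held 36.7% and 37.7%. Ggt6-201 held 92.6% and 89.6% of Ggt6. On shares of expected counts, 0 of the 8 genes passed 20 points, and 5.34% of all genes did. On that scale Gclm-201 and Ggt5-201 had the highest mean share of their genes.

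Around these genes, the wider glutathione pathway was broadly present. Of 59 genes in 7 lists of supply, degradation, reduction, mercapturic acid formation, transport, regulation and glyoxalase, 55 (93.2%) reached 1 TPM in both libraries, as did 48 of the 52 that are not among the 10 (92.3%). Over all 21474 protein-coding genes, 57.2% did. The median of the 52 was 84.6 TPM in replicate 1 and 62.1 TPM in replicate 2. Of the 52, 26 were higher and 11 lower in replicate 1 at an adjusted p below 0.05 (two-sided exact binomial test). Together these were 71.2%, where 69.0% of detected coding genes passed. At 2-fold, 1 of the 52 (1.92%) was called, on 8 and 31 counts, beside 8.21% of all genes tested. Neither that share nor the 4.18% among genes with 100 or more counts is limited to detected coding genes. As 48 of the 52 were detected, the shares are not like for like, and no conclusion is drawn from them.

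The called gene was Slc7a11, the cystine and glutamate exchanger that supplies cysteine in many cultured cells. Together with Dpep3 it was 1 of 2 pathway genes whose mean stayed below 0.1 TPM. It had 0.0200 TPM on 8 counts in replicate 1 and 0.160 TPM on 31 counts in replicate 2, a ratio of scaled counts of 0.318 (adjusted p = 0.00435, exact binomial test). Slc3a2, the heavy chain with which its product pairs, had 258.5 and 221 TPM in replicates 1 and 2. The apical cystine transporter of the proximal tubule is made of the products of Slc7a9 and Slc3a1. Slc7a9 had 273 and 218 TPM and Slc3a1 had 273 and 201 TPM, in replicates 1 and 2. Slc6a19, which takes up neutral amino acids at the same membrane, had 778.5 TPM in replicate 1 and 582.5 TPM in replicate 2, beside 776.5 and 582.9 TPM for Ggt1.

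Other steps had members above most of the 10 genes. Acy3, an aminoacylase that acts on mercapturic acids, had 1093 TPM in replicate 1 and 754 TPM in replicate 2. Nat8, which makes mercapturic acids by N-acetylation, and Acy1 had 191 and 190 TPM in replicate 1, and 155.5 and 152 TPM in replicate 2. The mitochondrial carriers Slc25a39, which imports glutathione, and Slc25a10 had 1144 and 723 TPM in replicate 1, and 747 and 497 TPM in replicate 2, and Slc25a11 had 219 and 186 TPM. Hagh and Glo1, the glyoxalases that use glutathione to clear methylglyoxal, had 557.5 and 38.1 TPM in replicate 1, and 418.5 and 47.4 TPM in replicate 2, and Esd, which hydrolyses S-formylglutathione, had 243 and 261 TPM.

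For degradation inside the cell, Oplah (160 and 105 TPM), the 5-oxoprolinase, Cndp2 (119 and 106 TPM), a cytosolic dipeptidase, and Lap3 (72.4 and 64.3 TPM), a leucine aminopeptidase, were the highest of their list in replicates 1 and 2. In the reduction list, Txn2 (314 and 262 TPM) and Txn1 (228 and 249 TPM), the thioredoxins, and Idh1 (190 and 221 TPM), which makes cytosolic NADPH, stood above Gsr. Among regulators of the synthesis genes, Nfe2l1 (175 and 165 TPM), Atf4 (95.9 and 59.8 TPM) and Mafg (50.9 and 41.1 TPM), all transcription factors or their partners, were the highest, in the same order of libraries.

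**Figure D5:**
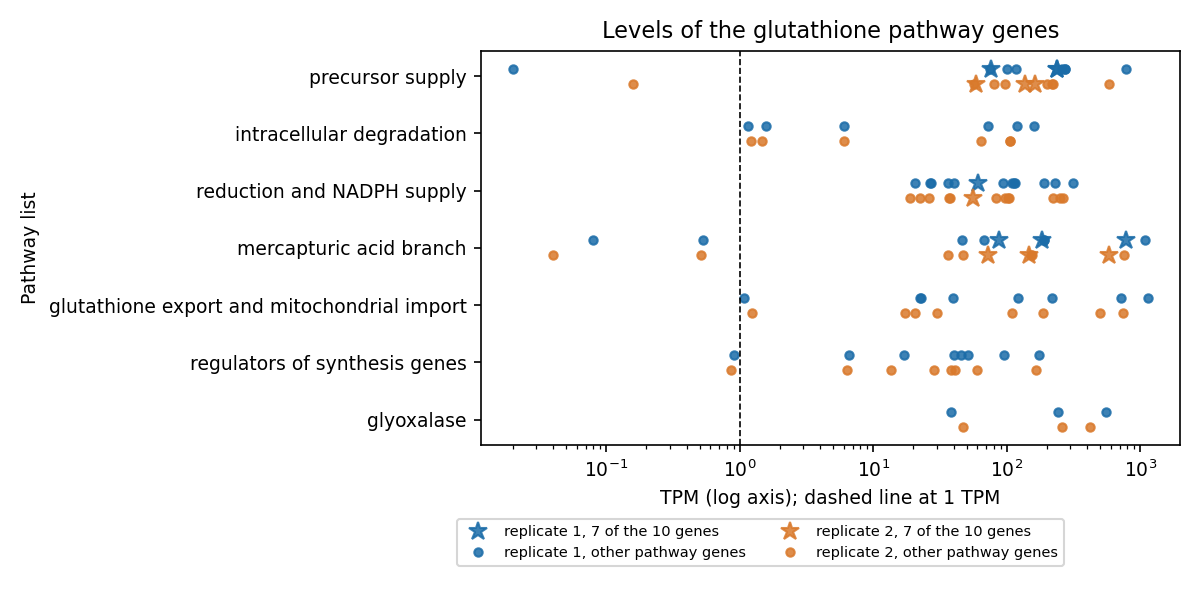
TPM (log axis) of each gene of the 7 pathway lists in replicate 1 and replicate 2, with 7 of the 10 genes as stars and the dashed line at 1 TPM. Slc7a11 at 0.0200 and 0.160 TPM and Dpep3 at 0.0800 and 0.0400 TPM lie far left of the line, and the stars lie between 55.7 and 776.5 TPM.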

How the data were processed

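Gene and transcript tables of 2 libraries were used. Per the text records deposited beside them, they are on mm10 with annotation M4. No source used here names the aligner or quantifier. Expected counts, as deposited by the authors, are estimates with decimals, which were rounded for tests. TPM and FPKM were also deposited. The deposited posterior mean TPM, the bounds of its interval (level not stated) and the SD of the count are signal values, and deposited lengths were read as a score in bases. The deposited isoform share is a percent of the gene. Junction and contig tables on an older build were not used. Names, types and positions came from GENCODE M21 on GRCm38, and promoters from RefSeq (GRCm38.p6).

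Library totals were 67252609 counts for replicate 1 and 87330097 for replicate 2, excluding spike-ins (1.59% and 2.29%), and were scaled by TMM in edgeR 4.0.16 (factors 1.03 and 0.974). DESeq2 1.42.0 gave alternative size factors only. Genes with 10 or more counts in sum were tested by the two-sided exact binomial test with Benjamini-Hochberg adjustment. The test was tested on simulated data. A quasi-likelihood test has no residual degrees of freedom here. Genes were called detected at 1 TPM in both libraries. Transcript starts within 1000 bases formed 1 group. Named were all 10 genes, transcripts with 10% or more of their gene (1% for Ggt1), and, of each pathway list, the 3 highest other genes, those below 0.1 TPM and those called. Slc3a1 was chosen after its values were seen. One listed symbol, Ccbl1, was not found. The 10 genes and all lists were chosen with earlier results of these data known. Alternatives covered scaling, filters, thresholds, posterior means, FPKM and each library alone.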

Additional observations from a re-analysis of the deposited data

How the results depend on the processing

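No paired analysis was possible because the labels give 1 group. The median level of the 10 genes, 73.9 TPM, was 59.5 as FPKM, 90.3 TPM when mitochondrial genes, Gm42418 and spike-ins were left out, and 65.5 to 82.3 TPM with a library left out. Their median percentile, 86.7, was 92.4 among all protein-coding genes with no filter, and 86.3 to 87.1 with a library left out. Gclc over Gclm, 0.374 on average, was 0.931 over CCDS transcripts, an alternative chosen after seeing the data, and 0.322 to 0.426 with a library left out. The count of genes called different between libraries, 1537, was 2870 with spike-in totals, 619 at 100 or more counts, 2714 at 1.5-fold and 353 by TPM with a pseudocount of 1. The count by TPM took the 2-fold limit alone, with no p. Spike-in totals moved the median log2 ratio of all detected genes to 0.60 and the part of calls that were higher in replicate 1 to 81.2%, against 31.6%. They called 2 of the 10 genes, Gclm and Ggt7, and turned the log2 ratios of Ggt5 to 0.50 and Gsr to 0.46, both still below that median. By TPM, whose median log2 ratio over all genes was 0.17, Gsr was at 0.12. In each of these scalings 8 of the 10 genes lay above the median of all genes. Library scaling shifts every log2 ratio of counts alike, so only the ratio by TPM could have changed these places. Genes called by isoform share, 738, were 2342 at 10 points and 215 at 10 TPM or more. On shares of expected counts, 0 of the 8 genes with several transcripts were called (5.34% of all genes), on posterior mean shares 1 of 8, Gclm (6.36%), at 10 points 3 of 8, Gclm, Ggt7 and Gss (24.9%), and at 10 TPM or more 1 of the 7 tested, Gclm (4.06%). The cause of these changes was not tested, except that higher thresholds test fewer genes. A difference between libraries cannot be computed with a library left out. A count of 0 allows up to 0.0446 CPM in replicate 1 and 0.0344 in replicate 2.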
